A study of Mus musculus with 5 samples.

Results

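The genes of the major histocompatibility complex (MHC) and of the machinery that loads it with peptides were examined in mammary glands of mice that had just given birth. The set was fixed by gene symbol: every row of the expression table whose symbol begins with H2-, the prefix of the mouse MHC, and 15 further genes of antigen presentation that lie inside or outside that complex. It held 57 of the 22609 genes in the table, 42 of them with an H2- symbol. Of the 57, 39 had a mean of at least 1 RPKM (a read count divided by gene length and by the number of mapped reads) over the 5 libraries, and 18 did not.

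The groups were Nfib-null, 3 libraries, and wild type (WT), 2 libraries. The Nfib product, NFIB, is a DNA-binding protein of the nuclear factor I family, and the study asks how it acts with STAT5 in the pregnant gland. Mice of both groups were outbred, and whole glands without lymph nodes were taken within 12 hours of delivery. The labels give neither the age of the mice nor the cells in which the gene was deleted, and they give no MHC haplotypes. The table holds only the authors' mean of each group, so no difference below has a replicate check, an error or a test. Values given below for Nfib-null and WT glands are those of the 2 columns of means. The Nfib-null one carries a name, NfibFF-WC, that the labels do not spell out, and it was assigned by elimination. Nfib itself was listed at 55.3 RPKM in Nfib-null glands and 33.7 RPKM in WT glands, so the targeted gene does not check that assignment. The 7 milk protein genes that define the lactating gland were present in both columns, with 24.8% of the RPKM sum in Nfib-null glands and 50.9% in WT glands. Depth was estimated from low values of genes with a single annotated transcript, each taken as 1 read in 1 library. The estimates were about 27200000 and 32900000 reads for 2 of the 3 Nfib-null libraries, and about 14900000 and 17700000 for the WT libraries. The ranges searched, 2 for each column, were set after seeing the values, so the number of estimates was set with them. A gene of 1 kb at 1 RPKM would rest on at least 60.1 reads in Nfib-null glands and about 32.6 in WT glands.

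MHC class I molecules consist of a heavy chain and beta-2-microglobulin and show peptides from the cytosol to CD8 T cells. The peptides are cut by the proteasome, whose catalytic subunits can be exchanged for those of the immunoproteasome, and are pumped into the endoplasmic reticulum by the TAP transporter. MHC class II molecules consist of an alpha and a beta chain, travel with the invariant chain to endosomes, and show peptides to CD4 T cells. Nearly all nucleated cells make class I, whereas class II is made mainly by macrophages, dendritic cells and B cells and can be induced in epithelium by interferon gamma. Promoters of both classes carry a shared set of elements that is read by the transactivators NLRC5, for class I, and CIITA, for class II. Its Y box is bound by the trimeric factor NF-Y.

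Some promoters are shown because CTGATTGG, the Y box motif, was, of the 5 motifs searched, the one most frequent in the set. RefSeq windows from 250 bases before to 50 bases after a transcript start on GRCm38.p6 were found for 40 of the 57 genes, 44 windows in all. CTGATTGG, searched as an exact match on both strands, stood in 21 of the 44 windows (47.7%), against 4.10% of all 32851 windows of that length. The lines below are given 5′ to 3′ on the coding strand of each gene with the match in capitals. H2-Aa (chr17:34287774-34288073, minus strand) and H2-Eb1 (chr17:34305617-34305916, plus strand) encode class II chains, H2-Oa (chr17:34092129-34092428, plus strand) a chain of the class II editor DO, H2-D1 (chr17:35262844-35263143, plus strand) a class I heavy chain, and Psmb9 (chr17:34187281-34187580, minus strand) an immunoproteasome subunit. For B2m (chr2:122147437-122147736, plus strand), the capitals mark GAAANNGAA, the core of an interferon-stimulated response element.
H2-Aa: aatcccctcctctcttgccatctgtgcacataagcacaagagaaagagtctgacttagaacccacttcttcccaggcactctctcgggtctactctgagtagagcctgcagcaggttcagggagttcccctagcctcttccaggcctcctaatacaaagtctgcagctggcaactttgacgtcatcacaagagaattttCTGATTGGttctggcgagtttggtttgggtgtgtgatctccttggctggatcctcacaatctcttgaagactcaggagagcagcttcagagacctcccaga
H2-Eb1: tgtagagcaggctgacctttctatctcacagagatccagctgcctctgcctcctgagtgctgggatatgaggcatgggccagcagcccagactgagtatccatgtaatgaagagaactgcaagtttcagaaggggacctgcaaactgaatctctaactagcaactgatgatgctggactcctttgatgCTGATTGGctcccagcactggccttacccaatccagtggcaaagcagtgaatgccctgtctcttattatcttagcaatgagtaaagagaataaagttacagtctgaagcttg
H2-Oa: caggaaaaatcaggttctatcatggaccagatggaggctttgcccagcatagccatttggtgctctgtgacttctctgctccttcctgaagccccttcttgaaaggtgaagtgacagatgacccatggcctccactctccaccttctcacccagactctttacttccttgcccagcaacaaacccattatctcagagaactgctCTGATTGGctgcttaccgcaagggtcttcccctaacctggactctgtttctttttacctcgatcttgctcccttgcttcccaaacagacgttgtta
H2-D1: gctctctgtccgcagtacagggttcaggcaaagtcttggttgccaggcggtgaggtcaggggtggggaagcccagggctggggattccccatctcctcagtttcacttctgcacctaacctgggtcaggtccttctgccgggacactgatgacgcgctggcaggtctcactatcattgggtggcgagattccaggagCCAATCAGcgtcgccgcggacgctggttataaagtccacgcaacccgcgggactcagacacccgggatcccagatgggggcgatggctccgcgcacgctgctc
Psmb9: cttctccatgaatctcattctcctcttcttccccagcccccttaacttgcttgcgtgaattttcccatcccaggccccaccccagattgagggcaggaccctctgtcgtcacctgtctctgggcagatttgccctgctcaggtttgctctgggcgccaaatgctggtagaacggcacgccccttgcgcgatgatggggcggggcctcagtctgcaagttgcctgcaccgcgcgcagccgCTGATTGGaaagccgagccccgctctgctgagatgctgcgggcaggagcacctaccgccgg
B2m: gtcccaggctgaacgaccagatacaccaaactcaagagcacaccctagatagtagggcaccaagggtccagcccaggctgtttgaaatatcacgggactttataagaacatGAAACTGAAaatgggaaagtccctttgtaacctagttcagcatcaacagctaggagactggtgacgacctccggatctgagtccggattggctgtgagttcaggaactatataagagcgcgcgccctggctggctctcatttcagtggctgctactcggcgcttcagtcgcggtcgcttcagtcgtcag

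The direction of the CTGATTGG match differed with the class of gene, but a match need not be the Y box. In all 3 class II chain genes with a window (H2-Aa, H2-Eb1 and H2-Eb2) and in H2-Oa the match stood on the coding strand, from 46 to 103 bases before the start. Only 1 of 5 class II loading and editing genes with a window, H2-Oa, held it. In all 13 class I heavy chain genes that held it, of 21 with a window, it stood on the opposite strand. The H2-D1 line also holds attgg on the coding strand ahead of its match, and the B2m line holds attgg without a full match. The exact search leaves these out, so whether the matches of both classes are the same element was not tested. Psmb9 and Tap1 are divergent neighbours, and the match in the one window is the same site as in the other. The other motifs searched were rarer. The full palindromic NFI site stood in 0 of the 44 windows and in 0.0365% of all windows, and the shorter NFI motif TTGGCA in 2 of the 44 (4.55%) against 14.1% of all. The STAT motif TTCNNNGAA stood in 4 windows (9.09%, against 8.30% of all) and GAAANNGAA in 4 (9.09%, against 8.56%). A match is a description of the letters in this window and does not show binding.

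**Figure D1:**
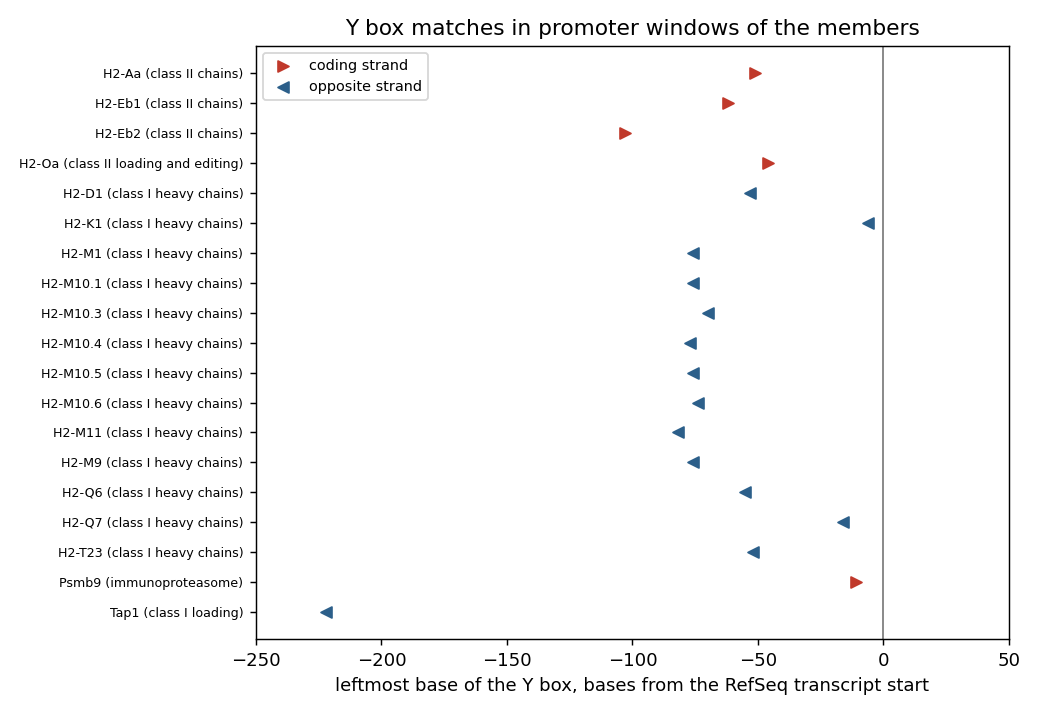
Position of exact matches to CTGATTGG, the Y box motif, in the promoter windows of the 19 genes that hold it, as the leftmost base in bases from the RefSeq transcript start (x axis, 0 is the start). Right-pointing red triangles are on the coding strand and left-pointing blue triangles on the opposite strand, and of the genes with 2 windows the first is plotted. The class II genes with a match have it on the coding strand and the class I heavy chain genes with a match on the opposite strand. Whether these are the same element was not tested.

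Relative to the typical gene, the antigen presentation genes stood higher in Nfib-null glands. Their summed RPKM was 5293 in Nfib-null glands and 2457 in WT glands, which is 0.965% and 0.259% of each column's sum, or 1.28% and 0.528% of it once the milk protein genes are left out. Across all genes the Nfib-null value was 1.33 times the WT value at the median, so differences are given after each column was divided by a factor that sets this median to 1, as differences of log2(scaled RPKM + 1). Of the 39 genes above the minimum, 5 were at least 2-fold higher and 1 at least 2-fold lower, against 6.95% and 5.97% of all 12511 genes above it. The median log2 difference of the 39 was 0.45, and that of all genes was 0. That sign depended on the scaling: with values as deposited 12 were at least 2-fold higher and 1 lower (14.4% and 2.95% of all genes), with quantile normalization 9 higher and 2 lower (6.56% and 5.56% of all genes), with scaling to luminal epithelial genes 2 higher and 7 lower (1.41% and 31.8% of all genes), and with scaling to macrophage genes 1 higher and 15 lower (0.512% and 60.9% of all genes). Luminal scaling moved the median of all genes by −0.72 and macrophage scaling by −1.18, and relative to those shifts the median of the 39 was 0.38 and 0.34. The tissue was whole gland, so fewer cells of a type and less RNA per cell cannot be told apart.

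**Figure D2:**
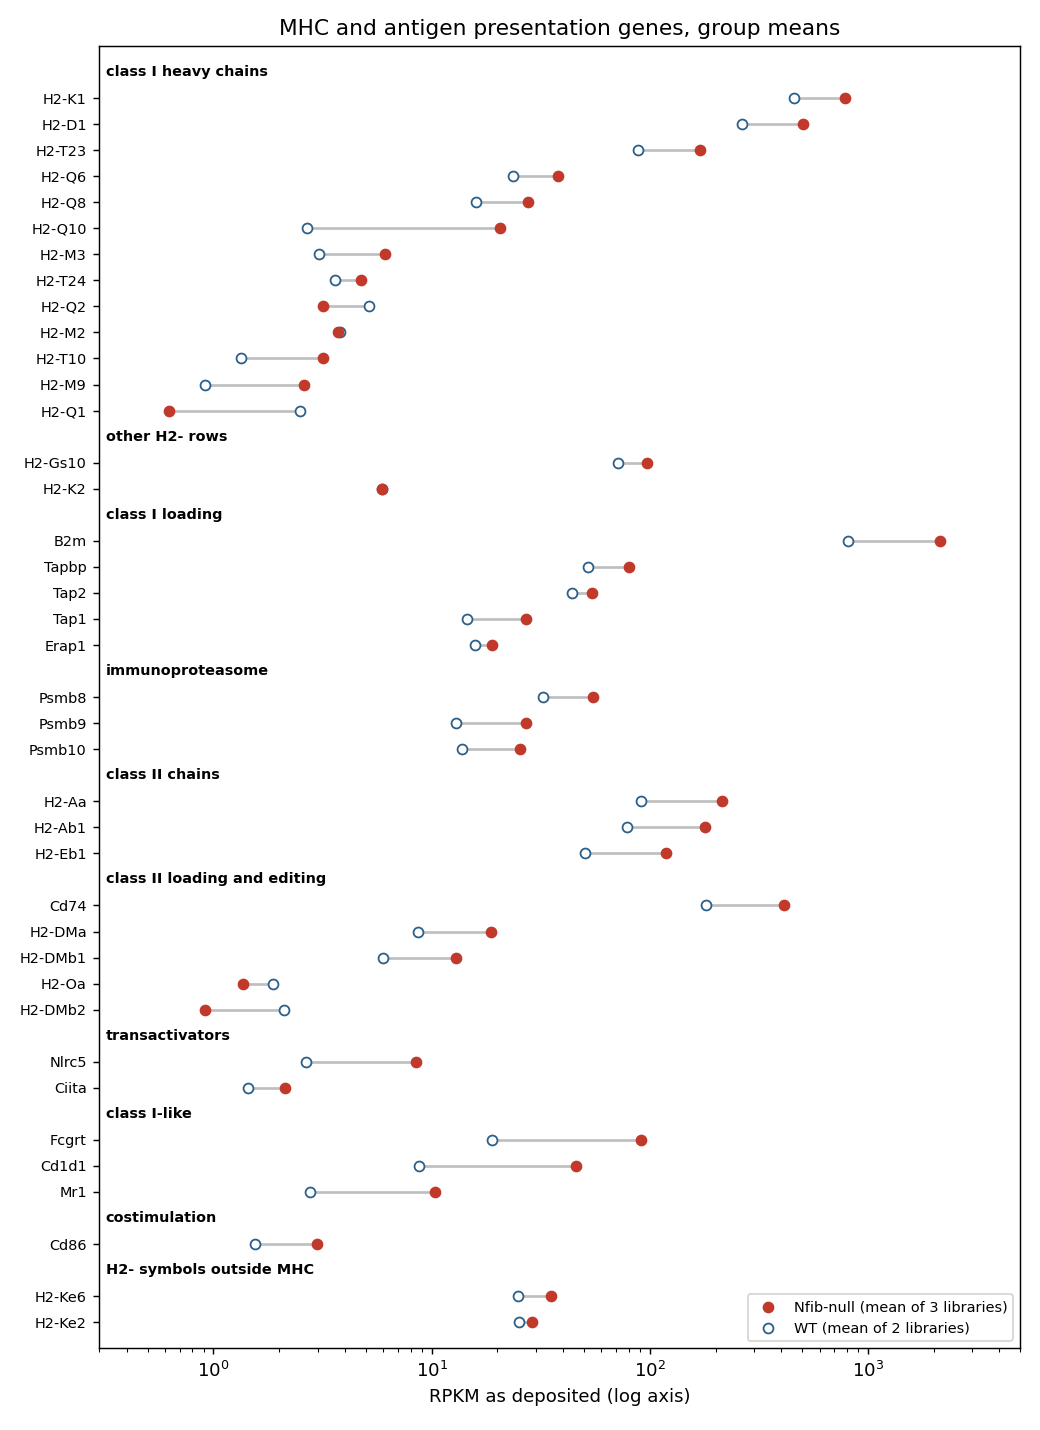
RPKM as deposited (log axis) of the 39 genes above the minimum, by role, in Nfib-null glands (filled red, mean of 3 libraries) and the WT column (open blue, mean of 2 libraries). Most pairs have the Nfib-null point to the right, and H2-Q1, H2-Q2, H2-Oa and H2-DMb2 have it clearly to the left; these are values before scaling, and with scaling to luminal or macrophage genes most of the pairs turn round.

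The classical class I heavy chains were abundant in both columns. H2-K1 was listed at 787 RPKM in Nfib-null glands and 458 RPKM in WT glands, ranks 63 and 117 among all genes. H2-D1 was listed at 504 RPKM and 265 RPKM in Nfib-null and WT glands. On the scaled log2 scale they differed by 0.37 and 0.51, neither by 2-fold, and both signs turned with scaling to luminal or macrophage genes.

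The nonclassical heavy chains spanned the widest range of the set. H2-T23, which encodes Qa-1, the ligand of the NKG2A receptor of natural killer cells, stood at 170 RPKM in Nfib-null glands and 87.9 RPKM in WT glands (log2 0.54). H2-Q6 stood at 37.7 against 23.6 RPKM (0.26) and H2-Q8 at 27.7 against 15.9 RPKM (0.37), in the same order of columns. H2-Q10, which encodes a secreted class I molecule known as a product of the mouse liver, was listed at 20.7 RPKM in Nfib-null glands and 2.68 RPKM in WT glands. Its log2 difference of 2.21 was the largest of the set, except that with a pseudocount of 5 (1.502) it lay below Fcgrt (1.65) and Cd1d1 (1.57), and it stayed at least 2-fold higher under every scaling and pseudocount tried (1.02 to 2.56).

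The lower heavy chains were scarce ones. H2-Q1 stood at 0.627 RPKM in Nfib-null glands and 2.48 RPKM in WT glands (log2 −1.32), the only gene of the 39 at least 2-fold lower, and with a pseudocount of 5 it lay within 2-fold (−0.50). H2-Q2 stood at 3.17 against 5.16 RPKM (−0.89). The remaining members of this group, with values of a few RPKM, lay within 2-fold. They were H2-M3, which presents N-formylated bacterial peptides (6.13 RPKM in Nfib-null glands, 3.03 RPKM in WT glands, 0.49), H2-M9 (2.59 and 0.917, 0.66), H2-T10 (3.18 and 1.34, 0.56), H2-T24 (4.75 and 3.62, −0.016) and H2-M2 (3.74 and 3.81, −0.35).

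Heavy chain genes are near-copies of each other, and how the authors assigned reads between them is not given in the sources used here. In GENCODE transcripts of GRCm38, 50.4% of the 50-base windows of H2-T10 also occur in another gene, 34.97% of those of H2-Q6, 19.1% of those of H2-Q10, 16.1% of H2-Q2 and 14.96% of H2-Q1, against 9.63% for H2-K1 and 12.8% for H2-D1. H2-Q10 shares most windows with H2-Q7, which was listed at 0 in both columns. H2-Q9 and H2-T9 were also at 0 in both columns, beside H2-Q6 and H2-Q8 with the values above. Whether shared reads, or MHC alleles other than those of the reference, moved these values was not tested.

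Of the 18 genes below the minimum, 8 were listed at 0 in both columns: H2-Q7, H2-Q9, H2-T9, the 4 genes H2-M10.3, H2-M10.4, H2-M10.5 and H2-M10.6, and the class II pseudogene H2-Ea-ps. A further 6 H2-M and H2-Bl genes had at most 0.236 RPKM in either column. H2-T22 stood at 0.466 RPKM in Nfib-null glands and 0.399 RPKM in WT glands, and H2-T3 at 0.0519 and 0.0261 RPKM.

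Of the partners of the heavy chain, beta-2-microglobulin stood out. B2m was listed at 2148 RPKM in Nfib-null glands and 812 RPKM in WT glands, ranks 16 and 42 among all genes. Its log2 difference of 0.99 lay just inside the 2-fold limit and passed it with quantile normalization (1.60), with equal sums (1.16) and as deposited (1.40), whereas scaling to luminal genes brought it to 0.15 and scaling to macrophage genes to −0.38. It stood further above WT than the chains it pairs with: the ratio of B2m to the summed class I heavy chains was 1.37 in Nfib-null glands and 0.929 in WT glands. That ratio within a column does not depend on the scaling. B2m also pairs with class I-like molecules outside the H2 set, and 0 of its 50-base windows are shared with another gene.

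Genes of the peptide-loading complex differed less. Tap1 and Tap2 encode the subunits of the TAP transporter, and they did not keep one ratio. Tap1 stood at 27.0 RPKM in Nfib-null glands and 14.5 RPKM in WT glands (log2 0.46), while Tap2 stood at 54.6 and 44.0 RPKM (−0.10). Tapbp, the tapasin that bridges TAP and the heavy chain, stood at 80.3 and 52.0 RPKM (0.21), and the trimming peptidase Erap1 at 18.8 and 15.8 RPKM (−0.15). All 4 lay within 2-fold. Tap1 shared its exact WT value with 1 other gene, Baz2a, and 23.2% of the windows of Tapbp and 11.6% of those of Tap2 also occur in other annotated genes.

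The immunoproteasome subunits stood higher against their constitutive counterparts. Psmb8 was listed at 54.6 RPKM in Nfib-null glands and 32.2 RPKM in WT glands, Psmb9 at 27.1 and 12.9 RPKM, and Psmb10 at 25.3 and 13.7 RPKM. None differed by 2-fold after scaling (log2 0.34, 0.62 and 0.45), and all 3 were below 0 with scaling to luminal (−0.48, −0.18 and −0.35) or macrophage genes. The constitutive subunits that they replace, Psmb5, Psmb6 and Psmb7, were lower or nearly level as deposited, at 48.0 against 53.1, 77.7 against 75.6 and 88.8 against 100.2 RPKM in Nfib-null and WT glands. The summed immunoproteasome subunits thus came to 0.499 of the summed constitutive ones in Nfib-null glands and 0.257 in WT glands, a log2 difference of 0.96 that no scaling factor between the columns can alter.

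As deposited, the main class II genes stood above WT by nearly one ratio. H2-Aa, the alpha chain of the A molecule, was listed at 213 RPKM in Nfib-null glands and 91.4 RPKM in WT glands. Its partner H2-Ab1 was listed at 178 and 78.7 RPKM and the E beta chain H2-Eb1 at 119 and 50.7 RPKM. Cd74, the invariant chain that guards the groove, was listed at 412 and 180 RPKM. H2-DMa and H2-DMb1, the chains of the DM molecule that swaps the invariant chain fragment for peptide, were listed at 18.6 and 8.66 RPKM and at 12.9 and 6.01 RPKM. These 6 genes, grouped after their values had been seen, had deposited ratios between 2.15 and 2.34, and log2 differences between 0.62 and 0.81 after scaling, none by 2-fold. With values as deposited 5 of the 6, all but H2-DMb1, passed 2-fold on the scale of log2(RPKM + 1), with quantile normalization 4 did (Cd74 1.11, H2-Aa 1.10, H2-Ab1 1.05 and H2-Eb1 1.03), and all 6 had negative differences with scaling to luminal or macrophage genes.

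Of the class II partners compared, H2-Aa and H2-Ab1, H2-DMa and H2-DMb1, and Cd74 and the chains held nearly the same proportions in both columns, and the DO chains did not. Cd74 came to 0.807 of the summed class II chains in Nfib-null glands and 0.815 in WT glands. H2-DMa came to 1.44 times H2-DMb1 in both columns, and H2-Aa to 1.20 times H2-Ab1 in Nfib-null glands and 1.16 times in WT glands. The low DO chain gene H2-Oa came to 3.20 times H2-Ob in Nfib-null glands and 1.48 times in WT glands. H2-Aa, H2-Ab1, H2-Eb1 and Cd74 share under 1% of their windows with other genes. H2-DMb1 shares 22.7%, H2-Oa 15.5%, H2-DMa 8.43% and H2-Ob 0%.

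The editors of class II loading and a few other class II genes stood apart. H2-Oa and H2-Ob encode DO, an inhibitor of DM known mainly from B cells. H2-Oa stood at 1.36 RPKM in Nfib-null glands and 1.87 RPKM in WT glands (log2 −0.53), and H2-Ob, below the minimum, at 0.426 and 1.26 RPKM. H2-DMb2, a second DM beta gene, stood at 0.916 and 2.10 RPKM (−0.93) and H2-Eb2, below the minimum, at 0.0602 and 0.261 RPKM. With a pseudocount of 0.1, H2-DMb2 was more than 2-fold lower (−1.496). The ratio of H2-Oa and H2-Ob to H2-DMa and H2-DMb1 was 0.0567 in Nfib-null glands and 0.213 in WT glands. H2-DMb1 was 14.1 times H2-DMb2 in Nfib-null glands and 2.86 times in WT glands, although 21.2% of the windows of H2-DMb2 are shared with H2-DMb1. These low values rest on roughly 68.3 reads or more for H2-Ob and 81.7 or more for H2-DMb2 in Nfib-null glands, and about 110 and 102 in WT glands, if each gene has the length of its longest GENCODE transcript. Markers of B cells were lower beside them. All 5 of the 8 B cell genes above the minimum were lower, 4 of them by at least 2-fold (2 as deposited). Of all genes, 5.97% were at least 2-fold lower (2.95% as deposited). The 8 B cell genes summed to 6.46 RPKM in Nfib-null glands and 19.1 RPKM in WT glands, none at 0. Their part in the low DO and DMb2 values was not tested.

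**Figure D3:**
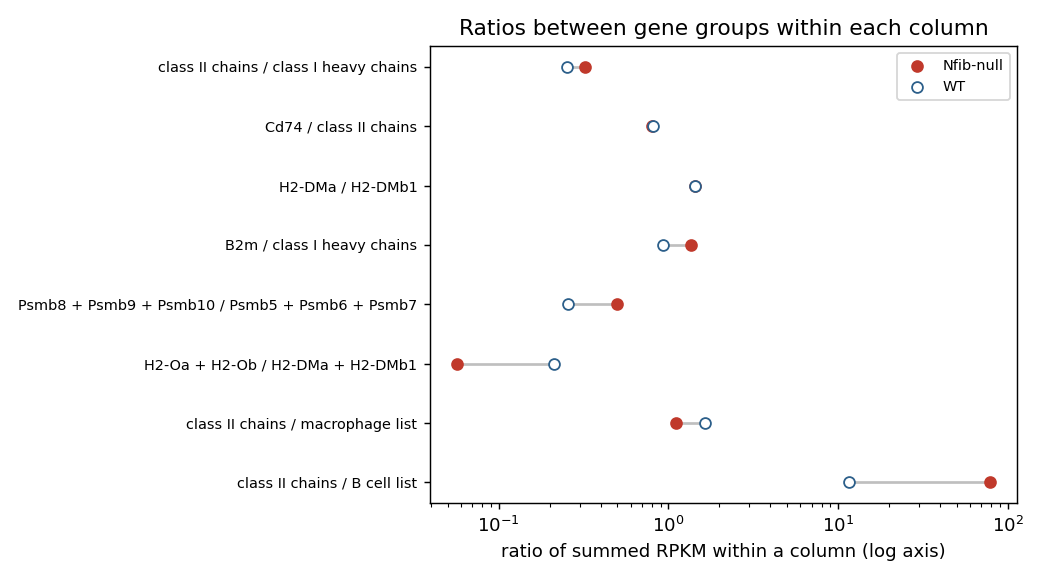
Ratios of summed RPKM between groups of genes within each column (log axis), Nfib-null (filled red) and WT (open blue). The ratios of Cd74 to class II chains and of H2-DMa to H2-DMb1 lie on top of each other, those of class II to class I chains, of B2m to heavy chains and of immunoproteasome to constitutive subunits are higher in Nfib-null glands, and that of H2-Oa and H2-Ob to H2-DMa and H2-DMb1 is lower.

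Class II was compared with class I directly. The class I list (heavy chains, loading genes, immunoproteasome and Nlrc5) had 22 of 37 genes above the minimum, with 2 at least 2-fold higher, 1 lower and a median log2 difference of 0.41. The class II list (chains, loading and editing genes and Ciita) had 9 of 12 above it, with 0 higher, 0 lower and a median of 0.64. Of all genes above the minimum, 6.95% were at least 2-fold higher and 5.97% at least 2-fold lower. The class II median exceeded the class I median by 0.24. This gap lay between 0.18 and 0.37 under every scaling, pseudocount, filter and choice of genes tried. A scaling factor between the columns moves both medians nearly alike, so steadiness across such factors was fixed in advance. Both medians turned negative with scaling to luminal genes (−0.39 for class I, −0.13 for class II) and to macrophage genes (−0.90 and −0.61). In sums, the class II chains came to 0.325 of the class I heavy chains in Nfib-null glands and 0.253 in WT glands. With H2-Aa, H2-Ab1 and H2-Eb1 over H2-K1 and H2-D1 alone, the ratio was 0.395 in Nfib-null glands and 0.305 in WT glands. No replicate spread exists to set beside this difference.

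**Figure D4:**
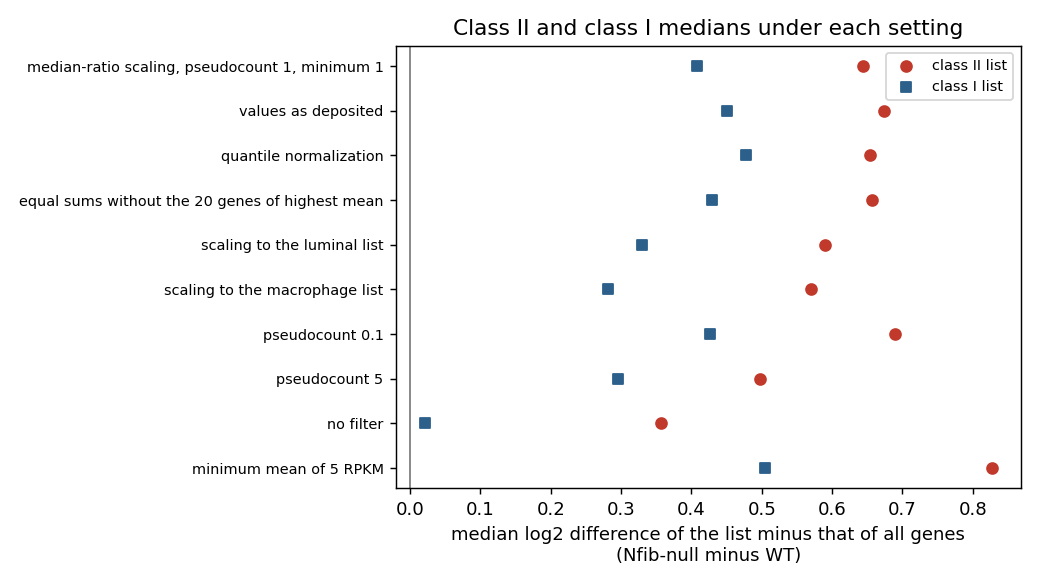
Median log2 difference (Nfib-null minus WT) of the class II list (red circles) and the class I list (blue squares), each minus the median of all genes, under the settings tried. Class II lies to the right of class I in every row, and both lie above 0 relative to all genes, although before that subtraction both are negative with scaling to luminal or macrophage genes. Rows that differ only in a scaling factor move both lists nearly alike, so their similar gaps follow from the method.

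The transactivators differed in the reverse order of the classes that they are known to drive. Nlrc5 was listed at 8.47 RPKM in Nfib-null glands and 2.66 RPKM in WT glands (log2 1.04). It passed 2-fold with values as deposited (1.37), but lay within 2-fold with quantile normalization (0.94), with 5 as the pseudocount (0.61) and with luminal scaling (0.35), and it turned to −0.092 with scaling to macrophage genes. Ciita stood at 2.12 and 1.44 RPKM in Nfib-null and WT glands (0.092). The class I transactivator thus differed more than Ciita, whereas the class I median differed less than the class II median. The factors that join them on the promoter lay within 2-fold. Of 7 such genes, 3 lay above 0 and 4 below (median −0.054). The most abundant were Nfyc and Nfya, subunits of NF-Y, at 22.4 against 23.5 RPKM (−0.46) and 12.8 against 9.58 RPKM (0.0036), Nfib-null against WT. Rfx5, picked with its value known, stood at 8.81 against 4.40 RPKM (0.51).

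The class I-like molecules differed most as a group, and all 3 were at least 2-fold higher, against 6.95% of all genes. Fcgrt, the neonatal Fc receptor that carries antibody across cells and spares it from breakdown, was listed at 91.4 RPKM in Nfib-null glands and 19.0 RPKM in WT glands (log2 1.81). Cd1d1, which presents lipids to natural killer T cells, was listed at 45.9 and 8.79 RPKM (1.87). Mr1, which presents vitamin B metabolites to mucosal-associated T cells, was listed at 10.3 and 2.76 RPKM (1.25). All 3 stayed positive under every scaling tried, the lowest values being 0.47, 0.57 and 0.10 with scaling to macrophage genes, where none reached 2-fold. With luminal scaling Fcgrt (0.993) and Mr1 (0.55) were also within 2-fold, and with a pseudocount of 5 Mr1 was (0.77). Cd1d1 shares 19.1% of its windows with Cd1d2, which stood at 0.350 and 0.117 RPKM, and Fcgrt and Mr1 share 0%. Against B2m, with which their products pair, Fcgrt came to 0.0425 in Nfib-null glands and 0.0233 in WT glands, and Cd1d1 to 0.0214 and 0.0108.

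The last members differed little. Cd86, the costimulatory ligand of CD28, stood at 2.97 RPKM in Nfib-null glands and 1.55 RPKM in WT glands (log2 0.36). H2-Gs10, which belongs to no list above, stood at 97.1 and 71.8 RPKM (0.023), and H2-K2, likewise in none, at 5.93 and 5.91 RPKM (−0.35). H2-Ke6 and H2-Ke2 carry an H2- symbol from their place in the complex, but encode a hydroxysteroid dehydrogenase (Hsd17b8) and a prefoldin subunit (Pfdn6). They stood at 35.3 and 24.8 RPKM (0.095) and at 28.8 and 25.1 RPKM (−0.21), and 70.5% of the windows of H2-Ke6 also occur in another annotated gene, Gm20427.

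Other genes of the pathway differed in both directions. Of 46 such genes 42 were above the minimum, 2 at least 2-fold higher and 3 lower (6.95% and 5.97% of all genes), with a median of −0.0051. The chaperones that fold class I chains in the endoplasmic reticulum, 5 in number, were all below 0, although as deposited Pdia3 stood at 0.0099. Hspa5, a general chaperone of that compartment, stood at 337 RPKM in Nfib-null glands and 706 RPKM in WT glands (log2 −1.48), and calreticulin (Calr), a part of the loading complex, at 477 and 701 RPKM (−0.97). Among peptidases, Lnpep, which trims peptides for cross-presentation, stood at 2.33 and 7.59 RPKM (−1.69) and Thop1, a cytosolic peptidase, at 9.12 and 17.2 RPKM (−1.22). The more abundant Npepps and Tpp2 stood at 25.3 and 14.97 RPKM (0.33) and at 18.2 and 20.03 RPKM (−0.52). The proteasome activator genes Psme1 and Psme2 stood at 90.01 and 54.8 RPKM (0.30) and at 63.3 and 48.2 RPKM (−0.017). Genes of 2 ubiquitin ligases that take class II off the surface, March8 and March1, stood at 29.1 and 22.1 RPKM (−0.014) and at 2.01 and 0.760 RPKM (0.55), and the costimulatory and inhibitory ligand genes Icosl and Cd274 at 3.19 and 2.19 RPKM (0.092) and at 3.35 and 1.85 RPKM (0.32).

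Endosomal proteases held both of the pathway genes that were at least 2-fold higher. Lgmn, an asparagine endopeptidase, was listed at 65.5 RPKM in Nfib-null glands and 21.5 RPKM in WT glands (log2 1.16), and Ctss, the cathepsin that cuts the invariant chain, at 89.4 and 31.2 RPKM (1.08). The most abundant of this list, Ctsd, stood at 574 and 598 RPKM (−0.47), and Ctsl at 458 and 185 RPKM (0.89). Ifi30, the lysosomal thiol reductase that prepares antigens for class II, stood at 93.7 and 105 RPKM (−0.58) in a direction opposite to the class II chains. As deposited 6 of the 8 genes lay above 0, and with scaling to macrophage genes 0 did.

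Of 8 genes of interferon and JAK-STAT signalling that can induce the MHC, all lay within 2-fold after scaling and 7 above 0 (median 0.23). As deposited, Irf2 (1.13, and 0.75 after scaling) and Ifngr2 (1.01, and 0.62 after scaling) were at least 2-fold higher, as were 14.4% of all genes. With scaling to luminal or macrophage genes, 0 of the 8 lay above 0. Those of highest mean were Ifngr1, an interferon gamma receptor chain (65.3 RPKM in Nfib-null glands, 62.1 RPKM in WT glands, −0.33), and the kinase gene Jak1 (48.1 and 35.9 RPKM, 0.012). Irf1, picked with its value known, stood at 17.7 and 8.79 RPKM (0.55).

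Markers of the cells that could carry the class II genes differed in unequal ways. All 10 macrophage genes were above the minimum and above 0, 7 of them at least 2-fold higher (9 as deposited). Of all genes, 6.95% were at least 2-fold higher and 5.97% lower (14.4% and 2.95% as deposited). The macrophage genes summed to 457 RPKM in Nfib-null glands and 135 RPKM in WT glands. Of 9 dendritic cell genes 5 were above the minimum, 4 of them above 0 but within 2-fold (Cd209a 0.995, Itgax 0.68, Batf3 0.39 and Zbtb46 0.049 on the log2 scale) and 1, Ccr7, at least 2-fold lower (−1.15), while as deposited 2 were at least 2-fold higher and 0 lower, and the 9 summed to 17.8 and 10.03 RPKM. T cell genes summed to 10.03 RPKM in Nfib-null glands and 18.8 RPKM in WT glands. All 6 of them above the minimum were below 0, 2 by at least 2-fold (1 as deposited). No gene of these lists was at 0 in both columns. The class II chains came to 1.12 times the macrophage sum in Nfib-null glands and 1.64 times in WT glands, to 28.7 and 22.0 times the dendritic cell sum, and to 79.0 and 11.6 times the B cell sum. Of the 3 pan-leukocyte genes, Lcp1 stood at 71.3 RPKM in Nfib-null glands and 38.5 RPKM in WT glands (log2 0.47), Coro1a at 15.8 and 14.2 RPKM (−0.24; 0.14 as deposited) and Ptprc, which encodes CD45, at 7.30 and 8.06 RPKM (−0.49).

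For class I, which nearly all cells make, the epithelium is a further source. Of the 16 luminal epithelial genes 6 were at least 2-fold higher and 1 lower (11 and 1 as deposited), with a median log2 difference of 0.83. Of all genes, 6.95% were higher and 5.97% lower by that limit (14.4% and 2.95% as deposited). The 16 genes summed to 2359 RPKM in Nfib-null glands and 1637 RPKM in WT glands. The class I heavy chains came to 0.666 of that sum in Nfib-null glands and 0.534 in WT glands, and to 3.44 and 6.48 times the macrophage sum. Elf5, the 1 lower gene, made up 321 of the 2359 RPKM of the luminal sum in Nfib-null glands and 711 of the 1637 RPKM in WT glands. Without Elf5, a choice made after seeing the data, the order turned round, with ratios of 0.771 in Nfib-null glands and 0.945 in WT glands. With luminal scaling the heavy chain median was −0.43 (2 of 13 above 0). That scaling brings the median of all genes to −0.72, and relative to it the heavy chain median was 0.29. The part of any cell type in the values of the antigen presentation genes was not tested.

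**Figure D5:**
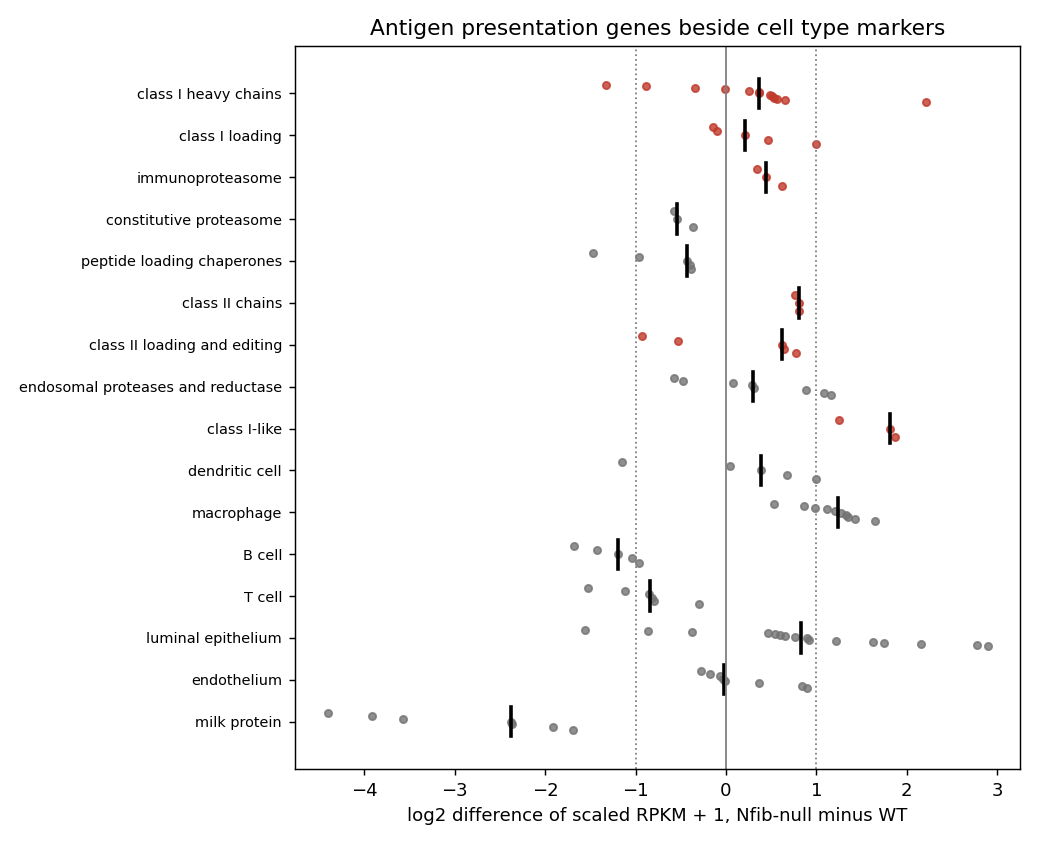
Log2 difference of scaled RPKM + 1 (x axis, Nfib-null minus WT) of each gene above the minimum, for the groups of antigen presentation genes (red) and for other pathway genes and cell type markers (grey), with the median of each list as a black bar. Solid and dotted lines mark 0 and the 2-fold limits. Class II chains and H2-DMa and H2-DMb1, but not H2-DMb2, lie between the dendritic cell and macrophage medians, class I-like genes lie beyond 2-fold, and B cell genes lie at the other side; with scaling to luminal or macrophage genes the medians of the red groups other than the class I-like one move below 0.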

How the data were processed

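Poly(A) RNA of whole glands was made into TruSeq libraries and sequenced on a HiSeq 2000, per the labels' protocols. Per the submitters' processing notes, CASAVA and TopHat were used with build mm9 (no versions). How reads were counted, on which annotation and with or without strand is not given in the sources used here, so reads of overlapping genes cannot be separated. The authors deposited RPKM, per the file headers, as 1 mean per gene and group, and no single library could be analysed. Of the 12205 Nfib-null values written with 10 decimals 68.2% ended in the recurring digits that a mean of 3 gives, and 0% of the only 67 such WT values did.

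The minimum was a mean of 1 RPKM, weighted by libraries, which 12511 genes reached. Columns were divided by median-ratio factors (1.15 for Nfib-null, 0.867 for WT), and log2(RPKM + 1) values were subtracted. The planned limma fit needs single libraries and was not run. A 2-fold limit stands in for a test. The genes, lists and limits were chosen with earlier results of these data known. All members at or above the minimum are named. Of the other lists, the genes named are the 3 farthest from 0 beyond 2-fold in each direction and the 2 of highest mean, with exceptions stated, and marker and costimulation lists are given mainly as sums and counts. The calculation was run on simulated data in which few genes changed, in balanced directions. That checks the arithmetic and not the choice of scaling. Depths were read from genes with a single GENCODE vM21 transcript, in windows set after seeing the values, and are approximate. RefSeq promoters and GENCODE transcripts are of GRCm38, not the submitters' mm9. Python 3.11.15 and pandas 2.3.3 were used.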

Additional observations from a re-analysis of the deposited data

How the results depend on the processing

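The number of antigen presentation genes at least 2-fold higher (5) or lower (1) in Nfib-null glands changed with most settings. It was 12 higher and 1 lower with values as deposited (1800 and 369 of all 12511 genes). Quantile normalization gave 9 higher and 2 lower (821 and 696 of all). Luminal scaling gave 2 and 7 (177 and 3975 of all), and macrophage scaling 1 and 15 (64 and 7614 of all). A pseudocount of 0.1 gave 6 higher and 3 lower (1313 and 942 of all), and a pseudocount of 5 gave 3 and 0 (346 and 444 of all). With a minimum of 5 RPKM it was 5 higher and 0 lower (665 and 600 of 8821 genes). A 1.5-fold limit gave 14 higher and 3 lower, and a 4-fold limit 1 higher and 0 lower, with no share of all genes computed at these limits. The class I and class II medians were reversed with scaling to luminal genes (−0.39 and −0.13) and to macrophage genes (−0.90 and −0.61), since these factors move every gene down by construction, and Nlrc5 was reversed with scaling to macrophage genes (−0.092). Without the filter the class I median was 0.021 and the class II median 0.36. The gap between class II and class I lay between 0.18 and 0.37 in all settings, 0.25 without the Q, T and M genes and H2-DMb2 and 0.37 with the classical genes alone. Across scaling factors this steadiness follows from the method, since a factor moves both medians nearly alike. The ratio of class I heavy chains to luminal genes differed by log2 0.32 and, without Elf5, by −0.29. Of 39 single genes, 38 kept their side of the 2-fold limit with equal sums 32 with values as deposited or quantile normalization, 30 with luminal scaling and 21 with macrophage scaling. No paired analysis was possible because the columns are group means, and for the same reason no replicate could be left out. At about 32.6 reads per kb and RPKM in WT, values below the minimum are imprecise.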
